A study of Homo sapiens with 6 samples.

Results

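Platinum and copper transport genes were followed in HK-2 cells exposed to cisplatin. The set holds 10 named genes, all of which were found among the 18969 genes of the deposited table by their symbols and all of which had enough counts to be tested. They fall into genes of uptake (SLC31A1, LRRC8A and LRRC8D), the copper chaperone gene ATOX1, the copper-exporting ATPase genes ATP7A and ATP7B, and the ABC exporter genes ABCB1, ABCC1, ABCC4 and ABCC5. HK-2 is an established human cell line derived from epithelium of the renal proximal tubule. Messenger RNA was sequenced in 3 libraries labelled Nfe2l1 overexpression and in 3 control libraries of cells labelled WT, and every culture in both groups had received 20 µM cisplatin, so no library here shows the transporters without the drug. How the overexpression was made, and whether controls carried an empty vector, is not given in the sources used here, and no label says that the libraries came from separate cultures, so p-values reflect library-to-library spread alone, and that spread may be technical.

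Copper enters human cells through the plasma membrane importer CTR1, is handed by small chaperones to its target proteins, and leaves through P-type ATPases that pump it into the Golgi or out of the cell. Cisplatin has been reported to bind several of these copper proteins. It also passes through volume-regulated anion channels, which are assembled from LRRC8 proteins, and is counted among the drugs that proximal tubule cells take up and then concentrate. ABC exporters use ATP to move drugs, conjugates and signalling nucleotides out of the cell.

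The libraries labelled overexpression held 16865460 to 23458333 counted reads and the controls 19821519 to 22365895. NFE2L1 itself, the check of the labels, stood at 48.5, 140.0 and 69.4 FPKM (reads scaled to gene length and library total) in libraries 1, 2 and 3 labelled overexpression, against 50.2, 54.5 and 54.2 FPKM in controls 1, 2 and 3. Library 1 labelled overexpression was therefore not raised, and every direction below compares libraries by their labels and is given with and without that library where it passed a test. The epithelial keratin genes KRT8 and KRT18 and the kidney transcription factor gene PAX8 were present, at means of 495.0, 443.8 and 33.5 FPKM over the 6 libraries, while the tubule water channel and phosphate transporter genes AQP1 and SLC34A1 were near 0, at means of 0.069 and 0.034 FPKM. Of 4 endothelial markers 0 and of 5 leukocyte markers 2 had values used here, the leukocyte pair with a summed level of 0.906 to 2.81 FPKM in libraries labelled overexpression and 1.33 to 2.66 FPKM in controls. Of 5 fibroblast markers 4 had values used here and 1, LUM, was above 1 FPKM; their sum was 4.58 to 6.15 FPKM in libraries labelled overexpression and 13.8 to 17.1 FPKM in controls, and the part of these markers in the results below was not tested.

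The stretches just upstream of the start sites are shown for 3 of the genes, because the overexpressed factor and metal-sensing factors both act through short promoter elements. RefSeq promoters (GRCh38.p14) were matched for 9 of the 10 genes, in 14 windows of 250 bases that end at the start site. The antioxidant response element, the site through which NFE2L1 and its relatives bind DNA, was searched as TGACNNNGC and the metal response element, the site of the zinc-sensing factor MTF1, in the loose form TGCNCNC, each on both strands. ATOX1, the gene that rose, is shown first, then ABCB1, the exporter gene with the smallest adjusted p (its second RefSeq start, since the window of the first held no match to any element searched), then ABCC4, the gene that held an antioxidant element; capitals mark matches to either element, which overlap each other in ATOX1. The windows are chr5:151758632-151758881, chr7:87600885-87601134 and chr13:95301452-95301701, all on the minus strand.
ATOX1: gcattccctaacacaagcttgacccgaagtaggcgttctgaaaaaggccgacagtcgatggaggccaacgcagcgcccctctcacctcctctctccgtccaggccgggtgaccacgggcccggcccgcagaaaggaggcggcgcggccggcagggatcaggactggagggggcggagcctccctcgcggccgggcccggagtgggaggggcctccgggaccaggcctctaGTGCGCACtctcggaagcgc
ABCB1: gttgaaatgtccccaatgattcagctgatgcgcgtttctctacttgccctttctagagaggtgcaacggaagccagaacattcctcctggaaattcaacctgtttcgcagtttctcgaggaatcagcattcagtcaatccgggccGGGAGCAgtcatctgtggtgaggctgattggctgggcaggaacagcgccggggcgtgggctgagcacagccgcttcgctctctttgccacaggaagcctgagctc
ABCC4: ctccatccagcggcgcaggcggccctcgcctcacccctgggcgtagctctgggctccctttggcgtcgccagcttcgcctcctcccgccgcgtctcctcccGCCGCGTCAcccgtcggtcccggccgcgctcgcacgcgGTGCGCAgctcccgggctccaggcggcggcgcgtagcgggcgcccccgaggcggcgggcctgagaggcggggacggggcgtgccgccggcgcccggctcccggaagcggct

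The antioxidant element was matched in 1 of the 9 genes with a window, in 1 of their 14 windows, that of ABCC4, where it began 149 bases before the start, against 10.9% of the 35116 windows of all RefSeq promoters. The loose metal element was matched in 7 of the 9 genes, in 9 of their 14 windows, and in 49.1% of all windows. ATOX1 held 2 overlapping matches to it, 20 and 19 bases before the start. The GC box GGGCGG, the site of SP1, was matched in 6 of the 9 genes, in 8 of their 14 windows, and in 42.6% of all windows. SLC31A1, whose transcription has been tied to SP1, held 3, as did windows 1 and 2 of ATP7B and window 2 of LRRC8D. These 2 windows of ATP7B overlap and share matches. The genes of these 2 factors did not pass, with MTF1 at -0.26 and SP1 at -0.78 on the log2 scale (edgeR adjusted p = 0.295 and 0.0505); without library 1 labelled overexpression SP1 passed, at -0.93 (adjusted p = 0.0389). Matches of letters are a description of these windows and not evidence of binding.

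Across the set, 1 gene was higher and 3 were lower in the libraries labelled overexpression (edgeR quasi-likelihood test, Benjamini-Hochberg adjusted p under 0.05 over all 15046 genes tested). The copper chaperone gene ATOX1 was 2.07-fold higher. LRRC8D, a subunit of the channel that admits cisplatin, and the exporter genes ABCB1 and ABCC5 stood at 0.580-fold, 0.581-fold and 0.606-fold of control. Among all genes, 9.62% were called higher and 9.49% lower, which is 1448 and 1428 genes; limma on log2(FPKM + 1) called 1198 higher and 2027 lower. The members' counts are to be read beside this broad difference between the groups. The importer gene SLC31A1, LRRC8A, both copper ATPase genes, ABCC1 and ABCC4 did not pass. In bulk RNA, fewer cells that express a gene and less of its RNA per cell cannot be told apart.

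**Figure D1:**
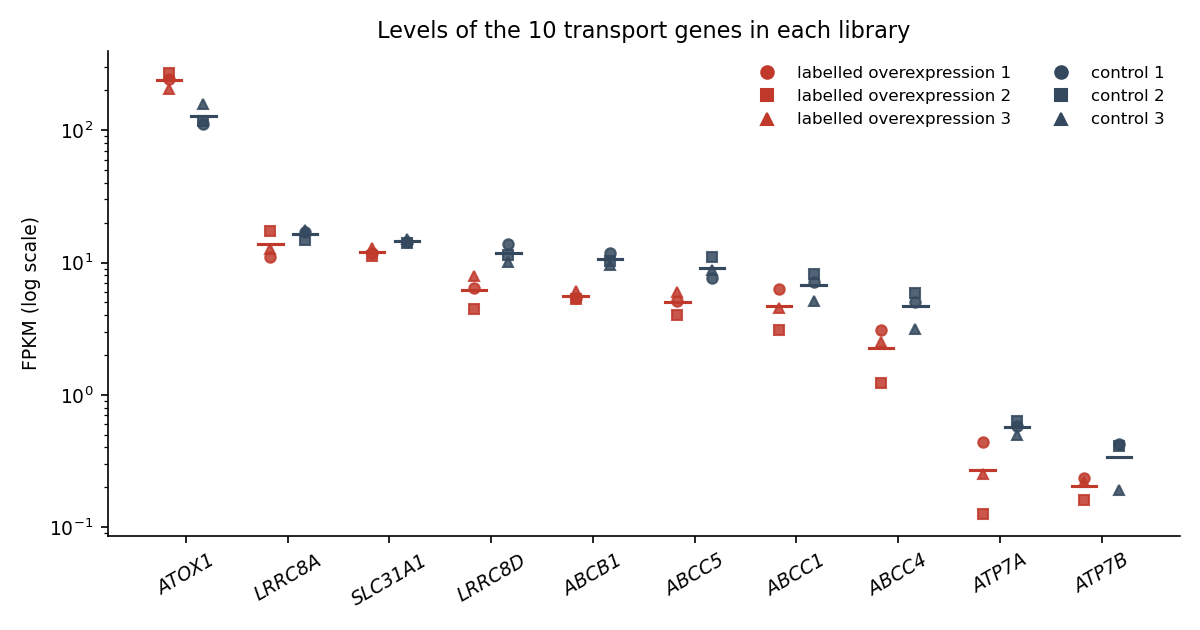
FPKM on a log scale for each of the 10 genes, with the 3 libraries labelled overexpression in red at the left of each pair and the 3 controls in dark blue at the right; short bars are group means and marker shapes give the library number. ATOX1 lies far above the other genes at 203.4 to 271.7 FPKM in libraries labelled overexpression and 111.8 to 157.0 FPKM in controls, and ATP7A and ATP7B lie below 1 FPKM in every library.

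The order of the levels was the same in both groups by group mean. In the libraries labelled overexpression ATOX1 averaged 240.2 ± 34.5 FPKM, against 128.7 ± 24.7 FPKM in controls (SD, n = 3 each). LRRC8A and SLC31A1 came next, at 13.7 ± 3.28 and 11.97 ± 0.834 FPKM in libraries labelled overexpression and 16.5 ± 1.42 and 14.5 ± 0.608 FPKM in controls (SD, n = 3 each). LRRC8D, ABCB1, ABCC5 and ABCC1 followed within a narrow band, 4.66 to 6.25 FPKM in libraries labelled overexpression and 6.81 to 11.8 FPKM in controls by group mean. Each of these genes overlapped the next in the order by its range over libraries in both groups, while in controls ABCC1 lay wholly below ABCB1 and LRRC8D. ABCC4 averaged 2.26 ± 0.940 FPKM in libraries labelled overexpression and 4.69 ± 1.38 FPKM in controls (SD, n = 3 each). ATP7A and ATP7B, with 25 to 119 and 25 to 63 counted reads per library, were the least abundant, and their levels rest on few reads.

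SLC31A1 encodes CTR1, the high-affinity copper importer of the plasma membrane (ENSG00000136868, chromosome 9, 113221544 to 113264492, plus strand, GRCh38.p13). It held 11.7, 11.3 and 12.9 FPKM in libraries 1, 2 and 3 labelled overexpression, against 14.2, 14.0 and 15.2 FPKM in controls 1, 2 and 3. Every library labelled overexpression lay below every control, yet the difference was small once library composition was scaled. The log2 fold change was -0.14 ± 0.14 (SE; edgeR adjusted p = 0.529), the smallest standard error among the 10 genes. It was -0.12 without library 1 labelled overexpression and 0.28 once length and GC content were offset (edgeR adjusted p = 0.349), so its direction is not settled. The 3′ part of the gene overlaps CDC26 on the opposite strand, which had 669 to 1252 counted reads; the library kit marks strand, but whether counting used it is not given in the sources used here. GENCODE 29 also lists a processed pseudogene, SLC31A1P1, that could share its reads.

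LRRC8A is the obligatory subunit of the volume-regulated anion channel (ENSG00000136802, chromosome 9, 128882133 to 128918039, plus strand). It stood at 11.04, 17.4 and 12.7 FPKM in libraries 1, 2 and 3 labelled overexpression, against 17.04, 14.9 and 17.6 FPKM in controls 1, 2 and 3. Library 2 labelled overexpression was among the highest of all 6 and the other two of its group were the lowest, so the groups overlapped. The log2 fold change was -0.12 ± 0.21 (SE; edgeR adjusted p = 0.712), and it was 0.018 without library 1 labelled overexpression.

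LRRC8D lets the channel pass larger and uncharged molecules, platinum drugs among them (ENSG00000171492, chromosome 1, 89821014 to 89936611, plus strand). Its level was 6.47, 4.42 and 7.87 FPKM in libraries 1, 2 and 3 labelled overexpression, against 13.9, 11.4 and 10.0 FPKM in controls 1, 2 and 3. The groups did not overlap. LRRC8D fell, with a log2 fold change of -0.79 ± 0.23 (SE; edgeR adjusted p = 0.0446), close to the threshold. Leaving out library 1 labelled overexpression gave -0.81, which did not pass (edgeR adjusted p = 0.0617). The ratio of LRRC8A to LRRC8D within a library was 1.71, 3.93 and 1.62 in libraries 1, 2 and 3 labelled overexpression and 1.23, 1.31 and 1.75 in controls 1, 2 and 3. These ratios overlapped, so the data do not show that the make-up of the channel transcripts differed, and library 2 labelled overexpression stood apart with the highest.

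Of the 3 remaining subunits of the channel 0 passed in edgeR, at 2 with an unadjusted p under 0.05. Among all genes 9.62% were called higher, 9.49% were called lower and 35.8% had an unadjusted p under 0.05. On the log2 scale LRRC8B lay at -0.75 and LRRC8C at -0.66 (edgeR adjusted p = 0.0919 and 0.0783), and both lay below every control in every library labelled overexpression, as did 20.9% of all genes in CPM. Under the length and GC offset LRRC8B lay at -0.11 and LRRC8C at 0.036. LRRC8E, at 11.5 to 15.6 FPKM in libraries labelled overexpression and 9.87 to 13.01 FPKM in controls, lay at 0.43 on the log2 scale (edgeR adjusted p = 0.154). Per length, LRRC8B and LRRC8C were scarcer than LRRC8E, at 1.03 to 2.42 FPKM in libraries labelled overexpression and 2.89 to 3.56 FPKM in controls over both genes.

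ATOX1 encodes a small cytosolic chaperone that carries copper to ATP7A and ATP7B (ENSG00000177556, chromosome 5, 151742316 to 151772532, minus strand). It stood at 245.4, 271.7 and 203.4 FPKM in libraries 1, 2 and 3 labelled overexpression, against 111.8, 117.2 and 157.0 FPKM in controls 1, 2 and 3. All 3 libraries labelled overexpression lay above all controls, library 1 included. ATOX1 rose with a log2 fold change of 1.05 ± 0.20 (SE; edgeR adjusted p = 0.0141), and the value was 1.04 without library 1 labelled overexpression (edgeR adjusted p = 0.0253). In the authors' deposited table ATOX1 has 1.01 on the log2 scale and an adjusted p of 0.000261. ATOX1 is the shortest of the 10 genes, at 0.471 kb of counted length, where the others run from 3.95 to 8.49 kb. Its annotated span overlaps G3BP1 on the opposite strand, with 2751 to 6238 counted reads, and also the processed pseudogene RPLP1P6 on its own strand, with 29 to 243. An unnamed long non-coding RNA with 16 to 147 reads also overlaps it on its own strand, and how reads in these overlaps were assigned is not given in the sources used here.

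ATP7A, the copper ATPase lost in Menkes disease, had very few reads (ENSG00000165240, chromosome X, 77910656 to 78050395, plus strand). Counted reads were 63, 25 and 46 in libraries 1, 2 and 3 labelled overexpression, against 111, 119 and 83 in controls 1, 2 and 3. Per length that was 0.440, 0.125 and 0.251 FPKM in libraries labelled overexpression and 0.584, 0.639 and 0.493 FPKM in controls, with every library labelled overexpression below every control. The log2 fold change, -0.96 ± 0.41 (SE), did not pass (edgeR adjusted p = 0.128). Without library 1 labelled overexpression it was -1.48 and passed (edgeR adjusted p = 0.0326); of its group, library 1 lay closest to the controls. The annotated span of the abundant glycolytic gene PGK1, with 13414 to 39875 counted reads, covers nearly all of ATP7A on the same strand, and how reads in the overlap were assigned is not given in the sources used here.

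ATP7B, the ATPase lost in Wilson disease, was the scarcest of the 10 (ENSG00000123191, chromosome 13, 51930436 to 52012125, minus strand). Its counted reads were 26, 25 and 31 in libraries 1, 2 and 3 labelled overexpression, against 63, 59 and 25 in controls 1, 2 and 3. Control 3 lay as low as the libraries labelled overexpression, and the groups overlapped in CPM (reads scaled to library total with TMM factors). The log2 fold change was -0.62 ± 0.39 (SE; edgeR adjusted p = 0.278).

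ABCB1 encodes P-glycoprotein, the efflux pump of many hydrophobic drugs, of which cisplatin is not a classic substrate (ENSG00000085563, chromosome 7, 87503017 to 87713323, minus strand). It held 5.38, 5.31 and 6.08 FPKM in libraries 1, 2 and 3 labelled overexpression, against 11.7, 10.3 and 9.65 FPKM in controls 1, 2 and 3. The 3 libraries labelled overexpression agree closely and all lie well below the controls. ABCB1 fell with a log2 fold change of -0.78 ± 0.17 (SE; edgeR adjusted p = 0.0181), and by 0.75 without library 1 labelled overexpression (edgeR adjusted p = 0.0368). For ABCB1 the authors' deposited table has -0.82 and an adjusted p of 0.000661. RUNDC3B, which overlaps it on the opposite strand, had at most 7 counted reads in a library.

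ABCC5, or MRP5, exports cyclic nucleotides and nucleotide analogues (ENSG00000114770, chromosome 3, 183919934 to 184017939, minus strand). It stood at 5.11, 4.05 and 6.02 FPKM in libraries 1, 2 and 3 labelled overexpression, against 7.67, 10.97 and 8.77 FPKM in controls 1, 2 and 3. The groups did not overlap. ABCC5 fell with a log2 fold change of -0.72 ± 0.20 (SE; edgeR adjusted p = 0.0398), and without library 1 labelled overexpression the value was -0.73 and did not pass (edgeR adjusted p = 0.0619).

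ABCC4, or MRP4, an exporter of organic anions and cyclic nucleotides in the apical membrane of the proximal tubule, had the second largest negative value (ENSG00000125257, chromosome 13, 95019835 to 95301475, minus strand). It held 3.07, 1.23 and 2.49 FPKM in libraries 1, 2 and 3 labelled overexpression, against 5.05, 5.85 and 3.17 FPKM in controls 1, 2 and 3. The groups did not overlap in FPKM, by a small gap between library 1 labelled overexpression and control 3, and did overlap in CPM. The log2 fold change was -0.93 ± 0.34 (SE; edgeR adjusted p = 0.0868). It passed without library 1 labelled overexpression, at -1.22 (edgeR adjusted p = 0.0432), and in a DESeq2 Wald test, at -0.97 (adjusted p = 0.0293).

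ABCC1, or MRP1, the exporter of glutathione conjugates, did not pass (ENSG00000103222, chromosome 16, 15949138 to 16143257, plus strand). Its level was 6.35, 3.11 and 4.52 FPKM in libraries 1, 2 and 3 labelled overexpression, against 7.16, 8.17 and 5.12 FPKM in controls 1, 2 and 3. Library 1 labelled overexpression was above control 3, so the groups overlapped. The log2 fold change was -0.42 ± 0.28 (SE; edgeR adjusted p = 0.307), and -0.71 without library 1 labelled overexpression (edgeR adjusted p = 0.0855).

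Set as uptake against export, 1 of the 3 uptake genes and 2 of the 6 export genes fell in edgeR, where 9.49% of all genes did. The DESeq2 Wald test called 1 of the 10 members higher and 4 lower, where it called 12.5% and 14.8% of all genes with an adjusted p. In edgeR 6 of the 10 had an unadjusted p under 0.05, as did 35.8% of all genes. Of the 10 genes, 9 had a negative log2 fold change. Among 10 bins of all genes by length, shortest to longest, these 9 lie in bins 7 to 10. The medians of those bins were negative too, from -0.19 to -0.49. In CPM, 5 lay below every control in every library labelled overexpression and 1 lay above, where 20.9% and 21.8% of all genes did so. The median log2 fold change of the 10 was -0.67, against 0.031 for all genes tested, and -0.31 against 0.025 once length and GC content were offset. Their median length was 5.50 kb, against 2.92 kb for all genes tested.

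**Figure D2:**
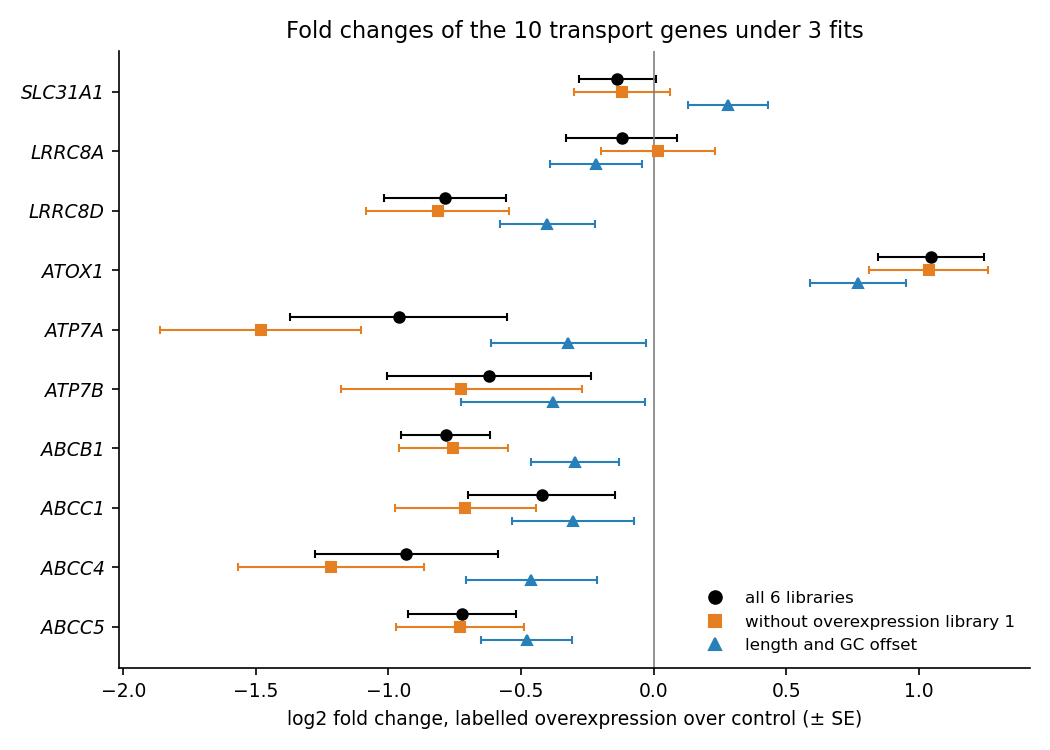
Log2 fold change of libraries labelled overexpression over controls with standard errors, for the 10 genes from uptake at the top to export at the bottom; black circles use all 6 libraries, orange squares leave out library 1 labelled overexpression and blue triangles carry an offset for length and GC. ATOX1 lies right of 0 under all 3 fits, from 0.77 to 1.05, while SLC31A1 and LRRC8A lie close to 0 and change side.

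Ratios of transcripts within a library do not depend on how libraries are scaled. They carry no offset for length, and ATOX1, at 0.471 kb, is far shorter than SLC31A1 at 4.76 kb and ATP7A at 8.49 kb. Among 10 bins of all genes by length, those holding ATOX1, SLC31A1 and ATP7A had median log2 fold changes of 0.61, -0.29 and -0.49. The part of length in these ratios was not tested. The ratio of the copper importer gene SLC31A1 to the drug exporter gene ABCB1 was 2.18, 2.13 and 2.12 in libraries 1, 2 and 3 labelled overexpression. In controls 1, 2 and 3 it was 1.21, 1.36 and 1.57. Cisplatin is not a classic substrate of ABCB1. The groups did not overlap, and the libraries labelled overexpression were almost equal. The ratio of SLC31A1 to ATP7A was 26.6, 90.1 and 51.4 in libraries 1, 2 and 3 labelled overexpression, against 24.4, 21.95 and 30.8 in controls 1, 2 and 3. Here library 1 labelled overexpression lay within the control range. The ratio of SLC31A1 to ATP7B also overlapped. It was 50.1, 70.0 and 59.3 in libraries 1, 2 and 3 labelled overexpression, against 33.3, 34.4 and 79.4 in controls 1, 2 and 3. The ratio of the chaperone to the importer, ATOX1 to SLC31A1, averaged 20.2 ± 4.19 in libraries labelled overexpression and 8.85 ± 1.32 in controls (SD, n = 3 each), with no overlap. ATOX1 stood at 558.1 to 2166 times the level of ATP7A in libraries labelled overexpression and at 183.5 to 318.5 times in controls, with the highest value resting on 25 reads of ATP7A. The balance of ATP7A to ATP7B, 0.777 to 1.88 in libraries labelled overexpression and 1.37 to 2.58 in controls, overlapped.

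**Figure D3:**
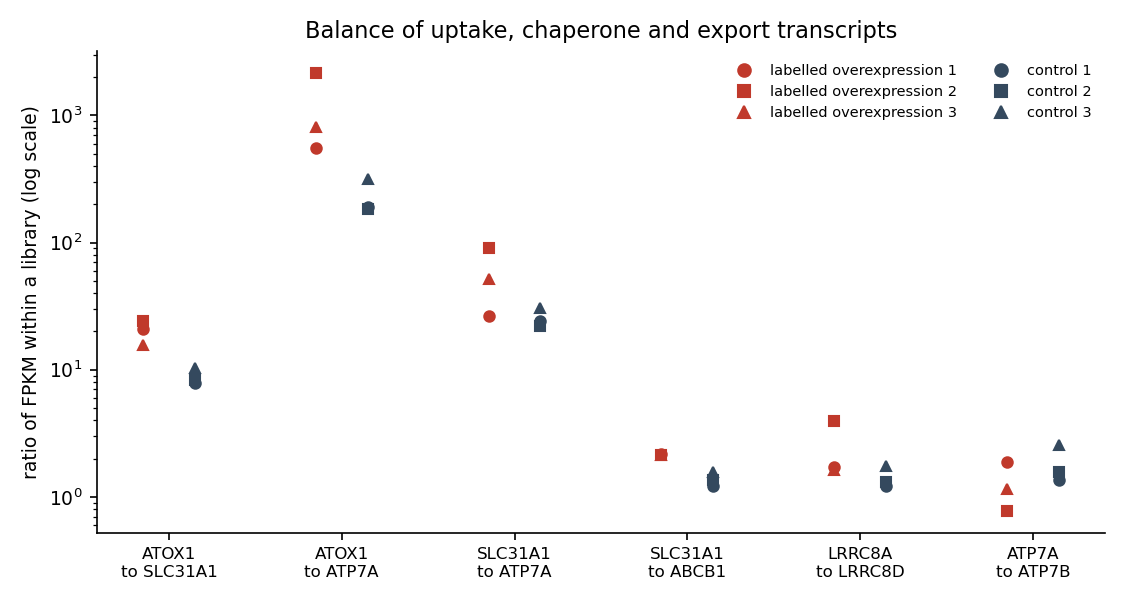
Ratio of FPKM between a pair of genes within each library, on a log scale, with the 3 libraries labelled overexpression in red at the left of each pair and the 3 controls in dark blue at the right; marker shapes give the library number. The groups are separate for ATOX1 to SLC31A1, ATOX1 to ATP7A and SLC31A1 to ABCB1. They overlap for the other pairs shown, as with SLC31A1 to ATP7A at 26.6 in library 1 labelled overexpression and 30.8 in control 3. The ratios carry no offset for length.

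The direction of these genes went with their length. Over all genes, the shortest of 10 bins by length, with a median of 0.594 kb, had a median log2 fold change of 0.61, and this bin holds ATOX1. The other members lie in bins 7 to 10, where the medians ran from -0.19 to -0.49. ATOX1 at 1.05 was above the median of its bin, and LRRC8D at -0.79 and ABCB1 at -0.78 were below those of theirs, -0.19 and -0.29. ABCC1 at -0.42 was close to the -0.40 of its bin, and SLC31A1 at -0.14 was above the -0.29 of its bin. Once length and GC content were offset, 0 of the 10 genes passed, where 0.475% of all genes were called higher and 0.228% lower. An unadjusted p under 0.05 was then found for 2 of the 10 and for 19.6% of all genes. ATOX1 then had a log2 fold change of 0.77 ± 0.18 (SE; edgeR adjusted p = 0.0652), ABCB1 -0.30 (adjusted p = 0.364), ABCC5 -0.48 (adjusted p = 0.170) and LRRC8D -0.40 (adjusted p = 0.259). All 4 calls were also lost without control 1 (edgeR adjusted p from 0.0863 to 0.176) and without control 2 (0.0767 to 0.179), settings in which 1 and 0 genes of the whole table passed, at 3962 and 3863 with an unadjusted p under 0.05; the ATOX1 log2 fold change stayed between 0.91 and 1.19 whichever library was left out.

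**Figure D4:**
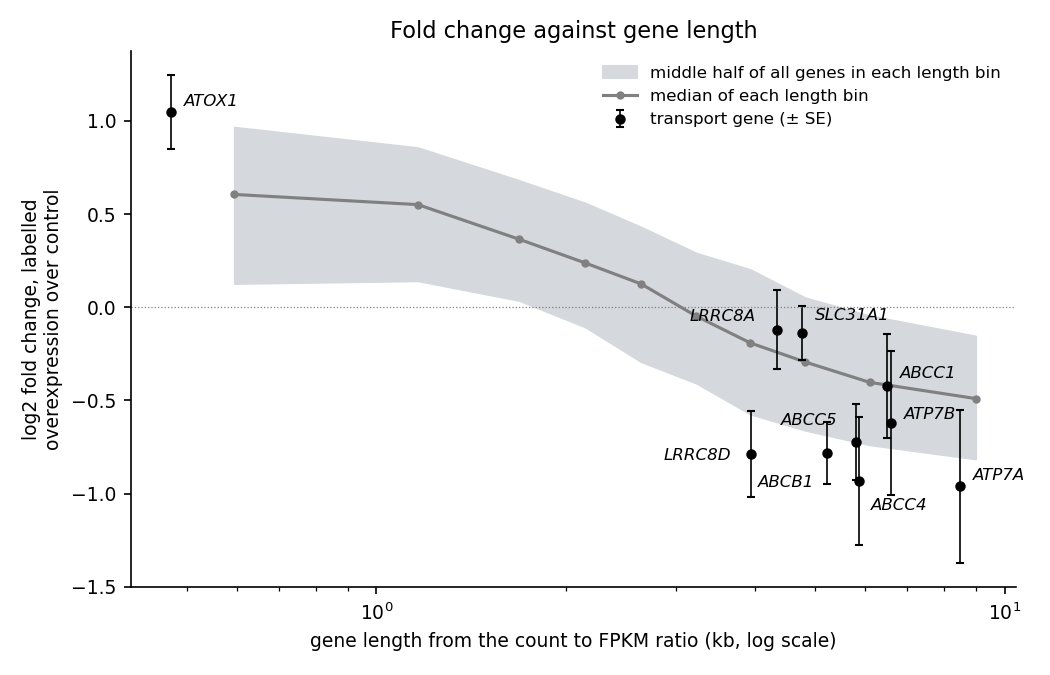
Log2 fold change of libraries labelled overexpression over controls against gene length on a log scale; black points with standard errors are the 10 transport genes, the grey line joins the medians of 10 bins of all genes by length and the band spans the lower to the upper quartile. ATOX1 sits at the short end at 0.471 kb and 1.05, and the rest sit at 3.95 to 8.49 kb, between -0.12 and -0.96.

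Other genes of copper handling moved in both directions. Of 18 tested, 4 rose, 1 fell and 13 did not pass, where 9.62% of all genes rose and 9.49% fell. The list's median log2 fold change was 0.14, at a median length of 3.44 kb. SOD1, the copper and zinc superoxide dismutase, held 740.3, 935.1 and 685.8 FPKM in libraries 1, 2 and 3 labelled overexpression, against 452.0, 542.3 and 541.9 FPKM in controls 1, 2 and 3, a difference of 0.77 on the log2 scale (edgeR adjusted p = 0.0223). The genes that bring copper to cytochrome c oxidase rose in part, with COX17 at 0.76, SCO2 at 1.28 and COA6 at 0.78 on the log2 scale (edgeR adjusted p from 0.0140 to 0.0357). Without library 1 labelled overexpression SOD1 (0.81), COX17 (0.81), SCO2 (1.33) and COA6 (0.75) still passed (edgeR adjusted p from 0.0265 to 0.0425). SCO1 and COX11, which serve the same step, had values of 0.13 and 0.12 and did not pass (edgeR adjusted p = 0.668 and 0.641). LOX, a copper-dependent enzyme that crosslinks collagen, fell by 0.91 (edgeR adjusted p = 0.0470), which did not hold without library 1 labelled overexpression (0.0755). CCS, the copper chaperone of SOD1, had a value of 0.84 that did not pass (adjusted p = 0.0635); it passed without library 1 labelled overexpression, at 1.01 (adjusted p = 0.0386), and was -0.047 under the length and GC offset. The metalloreductase genes STEAP1, STEAP2 and STEAP3 had values of -0.22, -0.82 and 0.20 and the CTR1 relative SLC31A2 of 0.19, none of which passed (adjusted p from 0.106 to 0.625). Under the length and GC offset the list's passing gene was COA6, at 0.77 (edgeR adjusted p = 0.0457), while SOD1 was 0.17, SCO2 0.35, COX17 0.55 and LOX -0.24.

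The genes that sort ATP7A and ATP7B between the Golgi and the cell surface moved in both directions. Of 18 tested genes 5 rose, 3 fell and 10 did not pass, where 9.62% of all genes rose and 9.49% fell. The list's median log2 fold change was 0.35. Its median length, 1.90 kb, lies in a bin of all genes by length with a median log2 fold change of 0.37. Under the length and GC offset the list's median was 0.40, against 0.025 for all genes. COMMD proteins form a sorting complex with CCDC22 and CCDC93, and COMMD1 is known for its tie to copper excretion. COMMD1 (1.33), COMMD4 (0.97), COMMD5 (0.99), COMMD6 (0.80) and CCDC22 (1.01) rose on the log2 scale (edgeR adjusted p from 0.0144 to 0.0444), while CCDC93 fell by 0.79 (adjusted p = 0.0492, and 0.0516 without library 1 labelled overexpression). COMMD1 stood at 12.7, 5.19 and 6.20 FPKM in libraries 1, 2 and 3 labelled overexpression, against 4.27, 3.70 and 2.44 FPKM in controls 1, 2 and 3, so library 1 held the highest level, and without it the call was lost (log2 fold change 0.85, adjusted p = 0.101). Of the adaptor complex AP-1, which recognises sorting signals at the Golgi, AP1S2 fell by 0.92 (adjusted p = 0.0147) and AP1G1 fell by 0.63 (adjusted p = 0.0343). Without library 1 labelled overexpression COMMD4 (0.90), COMMD5 (1.00), COMMD6 (0.70), CCDC22 (1.14), AP1S2 (-0.83) and AP1G1 (-0.71) still passed (edgeR adjusted p from 0.0262 to 0.0403). Under the length and GC offset the list's passing gene was COMMD6, at 0.84 (adjusted p = 0.0447), while the other called genes that rose lay between 0.27 and 0.91 and those that fell between -0.66 and -0.079.

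Among the other ABC exporters and the organic cation transporters 0 genes passed in edgeR, at 1 of 6 and 1 of 5 with an unadjusted p under 0.05. Over all genes 35.8% had such an unadjusted p, and 9.62% were called higher and 9.49% lower. Among 6 exporters tested, ABCG2, or BCRP, held 0.550, 0.740 and 0.573 FPKM in libraries 1, 2 and 3 labelled overexpression, against 1.03, 1.39 and 1.32 FPKM in controls 1, 2 and 3, a difference of -0.86 on the log2 scale (edgeR adjusted p = 0.0597). ABCB4, the neighbour and close relative of ABCB1, had a value of -0.68 (adjusted p = 0.212), and the list's median was -0.15. Among 5 cation transporters tested the carnitine transporter gene SLC22A5 had a value of -0.44 (adjusted p = 0.146), and the list's median was -0.074. SLC22A3, which encodes OCT3, stood below 1 FPKM in every library.

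**Figure D5:**
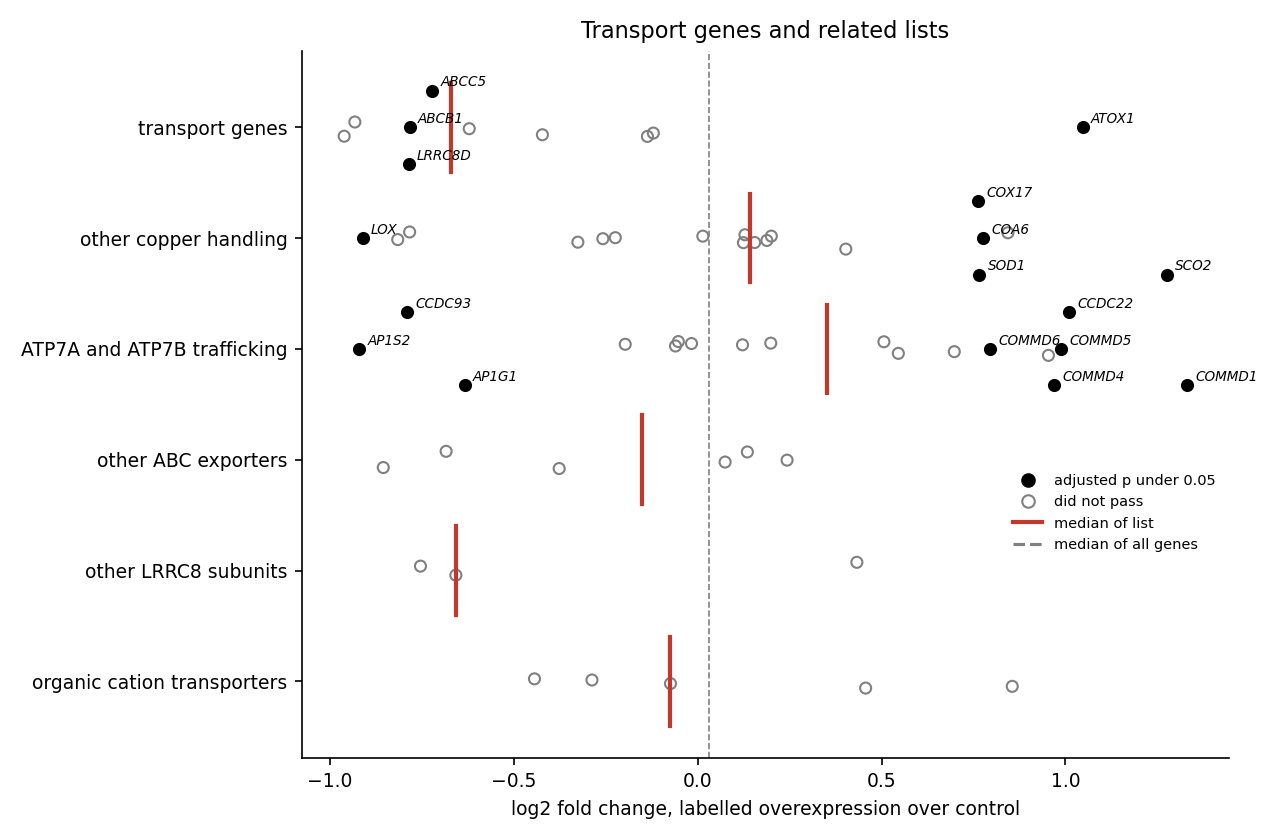
Log2 fold change of libraries labelled overexpression over controls for the 10 transport genes at the top and for the tested genes of 5 related lists beneath; filled points have an adjusted p under 0.05 and are named, open points did not pass, red bars are list medians and the dashed line is the median of all genes tested, 0.031. The transport genes and the other LRRC8 subunits have medians of -0.67 and -0.66, which were -0.31 and 0.036 under the length and GC offset. Trafficking genes have the highest median, 0.35, which was 0.40 under that offset.

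By their profile over the 6 libraries, the protein-coding genes most like SLC31A1 were CENPU, SETD1B and BVES, with a Pearson r of 0.997, 0.996 and 0.994 on log2 CPM. Those most like ATP7A were F2RL1, RNF157 and TRIQK, with an r of 0.998, 0.996 and 0.996. All 6 points share the same division into groups and the same libraries, and of 12433 genes compared 559 and 1280 had an r above 0.9 with SLC31A1 and ATP7A, so these likenesses are a description only.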

How the data were processed

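Messenger RNA was sequenced from HK-2 cells, per the labels, with a stranded mRNA kit. The submitters' processing notes name Trimmomatic 0.36 and GRCh38; no source used here names the aligner, the counter or the annotation release. The authors deposited raw counts per gene and library, and FPKM values whose ratio to the counts gave each gene's length. The authors also deposited a log2 fold change and an adjusted p-value per gene, with no stated test, which are printed only where their table is named. For the members these log2 fold changes were nearly equal to those of the DESeq2 Wald test used here (ATOX1 1.01 in both, ABCB1 -0.82 in both). They are therefore not separate evidence.

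Groups follow the labels; 0 libraries were identical, and 0 columns of per-sample values were left unmatched. Genes kept by filterByExpr (15046) were fitted with edgeR 4.0.16 in R 4.3.3 (TMM scaling, glmQLFit, glmQLFTest, group alone, Benjamini-Hochberg at 0.05). Standard errors (SE) were taken from F, as |log2 fold change| / sqrt(F). The fit was tested on simulated data. FPKM is used for levels, and CPM with TMM factors for overlap between groups.

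The members, lists and tests were chosen with earlier results of these data known. Named genes were the 10 members, NFE2L1, every gene of a related list that passed or else the 2 with the smallest adjusted p, and the 3 genes most like SLC31A1 and ATP7A; SCO1, COX11, CCS, STEAP1, STEAP2, STEAP3, SLC31A2, MTF1, SP1 and SLC22A3 were added after their values were seen, and 1 gene that the rule names is not reported here. STEAP4, ABCC11, ABCC12, SLC22A2, SLC47A1 and SLC47A2 were not analysed here, and VPS35L had too few counts to be tested. Alternatives were no filter, an FPKM filter (1 or more in 3 or more libraries), DESeq2 1.42.0 (size factors, and its Wald test), limma 3.58.1 on log2(FPKM + 1) and log2(FPKM + 0.1), a replicate block, leaving out each library, and offsets per library smoothed on length, or on length and GC content (mgcv 1.9.3; GC from the longest GENCODE 29 transcript, matched for 98.45% of rows).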

Additional observations from a re-analysis of the deposited data

How the results depend on the processing

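The 4 calls, ATOX1 upward and LRRC8D, ABCB1 and ABCC5 downward, held with no filter, the FPKM filter, DESeq2 size factors, the DESeq2 Wald test and limma at both pseudocounts; the Wald test added ABCC4. ATP7A and ATP7B have no value under the FPKM filter or limma. With the length and GC offset 71 genes rose and 34 fell, and 0 and 0 members; with length alone 507 rose and 507 fell, and 0 and 0 members (2 and 3 members had an unadjusted p under 0.05). SLC31A1 turned to 0.28 and 0.16 under these offsets and LRRC8A to 0.14 with length alone; neither passed under any setting. The cause was not tested. Leaving out single libraries, genes of the whole table that rose numbered 0 to 1775 and those that fell 0 to 1874, members that rose 0 to 1 and members that fell 0 to 3, and LRRC8A ran from -0.38 to 0.018. Without control 1 or control 2 no member passed, at 4 and 4 with an unadjusted p under 0.05. Without control 3, or library 3 labelled overexpression, ATOX1 and ABCB1 were the members that still passed. Replicate numbers gave no sign of pairing: same-numbered libraries correlated at 0.0061, -0.51 and 0.088 in their deviations from group means. Across numbers, library 1 labelled overexpression correlated at 0.60 with control 2 and at -0.50 with control 3. Deviations from a group mean cancel out within the group, so these values cannot decide whether a pairing or batch existed. With the replicate block 0 genes and 0 members passed (edgeR, at 4413 genes and 6 members with an unadjusted p under 0.05). ATP7A and ATP7B rest on 25 to 119 and 25 to 63 reads per library.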
